A study of Mus musculus with 18 samples.

Results

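The in vitro Fabp4 heterozygotes of this series were 3 bulk RNA-seq libraries, compared here with the 6 libraries of both homozygous genotypes made alongside them. By label they differ in genotype alone: Fabp4 wild-type (WT, 3 libraries), heterozygous knockout (HET, 3 libraries) and homozygous knockout (KO, 3 libraries). They make up 9 of the 18 libraries in the series, whose title concerns Fabp4 in leukemia stem cells as against hematopoietic stem cells. The cells are labelled as mouse bone marrow cells sorted from in vitro marrow. The design text names 3 mice per genotype but ties no library to a mouse. The p-values therefore measure the spread between these libraries, which may be technical in part. The labels do not state the knockout allele, the strain, age or sex of the mice, the culture time or the sorted population. The members were chosen by label alone, as all HET libraries set against the midpoint of the WT mean and the KO mean. The question that this contrast addresses is whether the loss of a single Fabp4 allele left each gene between the homozygous genotypes, in the order of gene dose.

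Fabp4 encodes the fatty acid binding protein of adipocytes and macrophages, a small cytosolic carrier of fatty acids. Maturing neutrophils fill their granules in waves: the primary granule proteins, such as myeloperoxidase and elastase, are transcribed first, and the secondary and tertiary granule proteins, such as lactoferrin and neutrophil collagenase, later. Monocytes and macrophages arise from the same progenitors and are marked by the receptor for colony stimulating factor 1, by scavenger and Fc receptors and by lysosomal proteases.

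The genes that stood farthest above the midpoint included 4 neighbouring stefin genes on chromosome 16, namely Cstdc4, Stfa3, Csta2 and Stfa2l1. Stefins are small intracellular inhibitors of cysteine proteases. The 150 bases before the RefSeq start are shown for Cstdc4, Stfa3 and Stfa2l1 (GRCm38.p6, 5′ to 3′ on the strand of each gene). Those of Stfa1, a smaller riser of that cluster, are shown with them in place of Csta2. The choice was made because these windows are alike. The capitals mark a run of 13 bases that all 4 windows shown shared. The windows are chr16:36156661-36156810 for Stfa2l1, chr16:36184062-36184211 for Cstdc4, chr16:36276998-36277147 for Stfa1, all on the plus strand, and chr16:36455393-36455542 for Stfa3 on the minus strand.
Stfa2l1: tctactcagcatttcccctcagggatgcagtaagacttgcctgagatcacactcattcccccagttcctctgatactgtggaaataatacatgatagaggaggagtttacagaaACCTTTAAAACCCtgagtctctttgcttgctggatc
Cstdc4: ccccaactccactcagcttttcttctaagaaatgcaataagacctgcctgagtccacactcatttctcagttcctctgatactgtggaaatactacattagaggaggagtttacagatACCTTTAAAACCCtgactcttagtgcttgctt
Stfa1: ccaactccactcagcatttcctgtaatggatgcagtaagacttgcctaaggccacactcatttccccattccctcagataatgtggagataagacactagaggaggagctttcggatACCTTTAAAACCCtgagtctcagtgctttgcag
Stfa3: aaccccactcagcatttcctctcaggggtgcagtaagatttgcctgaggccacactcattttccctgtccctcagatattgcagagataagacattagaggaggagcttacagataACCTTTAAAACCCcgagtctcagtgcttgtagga

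Over the 6 pairs, these 4 promoters were 76.8% to 84.3% identical after alignment. The shared run ACCTTTAAAACCC began 36 bases before the start of Stfa2l1, 32 before Cstdc4, 33 before Stfa1 and 34 before Stfa3. It was found, on either strand, in 7 of 25748 autosomal promoter windows of that length (0.0272%). The 4 windows shown, from which the run was taken, are among these 7, so the count partly restates that choice. The promoter of Csta2, the fifth stefin gene of the cluster that passed the test below, was 45.3% to 48.4% identical to the 4 and did not hold the run.

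Promoters of Mmp8 and Saa3, which showed the largest differences of all, and of Trem2, a macrophage receptor gene, are shown with the motifs found in them in capitals. The letters searched, on both strands, were GAGGAAG for PU.1 (Spi1), TTNNGNAA for the C/EBP family and TGANTCA for AP-1. N stands for any base, so the C/EBP and AP-1 patterns are loose. The windows are chr9:7558279-7558428 on the plus strand for Mmp8, chr7:46715677-46715826 on the minus strand for Saa3 and chr17:48346251-48346400 on the plus strand for Trem2.
Mmp8: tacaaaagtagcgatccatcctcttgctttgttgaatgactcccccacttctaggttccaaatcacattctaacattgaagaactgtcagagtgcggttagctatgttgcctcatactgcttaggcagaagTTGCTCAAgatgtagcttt
Saa3: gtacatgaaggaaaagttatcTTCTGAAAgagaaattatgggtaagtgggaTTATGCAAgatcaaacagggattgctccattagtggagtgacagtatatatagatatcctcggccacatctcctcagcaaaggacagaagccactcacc
Trem2: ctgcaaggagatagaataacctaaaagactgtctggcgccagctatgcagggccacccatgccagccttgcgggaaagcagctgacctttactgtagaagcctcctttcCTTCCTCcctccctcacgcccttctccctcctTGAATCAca

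Mmp8 held 1 C/EBP match, 19 bases before its start, and Saa3 held 2, at 129 and 99 bases. Each window precedes the first RefSeq start listed for a gene. That of Saa3 lies inside the full span of the gene, 46711998 to 46719615, so another start exists. Trem2 held a PU.1 match at 41 bases and a match to the loose AP-1 pattern, TGAATCA, at 9 bases. Among the stefin genes, Stfa2l1 and Stfa1 each held 1 C/EBP match, at 44 and 109 bases, outside the shared run. Of the 186 genes that passed the test above the midpoint, 149 had a RefSeq promoter, and 19.5% of those held the PU.1 letters, beside 6.91% of the 8554 tested genes with a promoter and 6.81% of all 25748. The C/EBP letters were in 29.5% of the 149, 16% of the tested genes and 22.7% of all. The AP-1 letters were in 6.71%, 2.56% and 4.28%. Of the 51 promoters of genes that passed below the midpoint, 7.84% held the PU.1 letters, 15.7% the C/EBP letters and 1.96% the AP-1 letters. The 186 genes include 32 that met the minimum level of the test only through HET, as given below, and shares without them were not computed. A match describes the letters of the window and no binding was measured.

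The values are fragments per kilobase of transcript, scaled to library size (FPKM), and differences are given on the log2(FPKM + 1) scale, which understates the change of low genes. The estimated depth of the 9 libraries was 30300000 to 36500000 fragments, and 16779 to 18029 genes were above 0. Ranks of genes correlated between libraries at Spearman 0.962 to 0.97. Elane, a gene of granulocyte progenitors, was at 870 to 2062 FPKM in every library. Markers of B cells (summed 5.25 to 9.05 FPKM over 9 genes) and of T and NK cells (4.3 to 6.9 over 10 genes) were low in every library. Xist and Y-linked transcripts, given by library further on, also set the HET libraries apart from the other 6, so that donor sex and heterozygosity cannot be told apart in the comparisons that follow. In bulk samples, fewer cells of a type and less RNA per cell cannot be told apart.

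Fabp4 itself checks nothing here, since it was near 0 in every genotype. The WT libraries listed 0, 0.0326 and 0.330 FPKM, the HET libraries 0, 0.0676 and 0, and each KO library 0. The HET mean lay 0.0379 FPKM below the mean of the other 6 libraries, and the exact two-sided permutation test over 84 splits gave p = 1.0, with 0.0238 the smallest it can give. Fabp5, the epidermal relative of Fabp4 that also binds fatty acids, was at 75.1, 93.6 and 100.2 FPKM in WT, 76.7, 74.7 and 69.7 in HET and 44.1, 48.8 and 48.4 in KO. Its HET libraries overlapped the WT range and lay above all KO libraries. Fabp5 differed from the midpoint by 0.18 ± 0.09 (SE), with an adjusted p of 0.304.

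Of 10493 autosomal genes with at least 1 FPKM in 3 libraries, 246 (2.34%) passed the test for HET minus midpoint at an adjusted p under 0.05. The calls were unequal in direction: 186 genes (1.77%) were higher and 60 (0.572%) lower than the midpoint. Of the 186, 32 reached 1 FPKM in fewer than 3 homozygous libraries, as did 152 of all tested genes. None of the 60 did, which their direction made unlikely in advance. Some of the 60, Hlf, Slc15a2 and Capn11 among them, entered only through KO, and such calls were not counted. The 32 higher calls entered the test only through HET, so that the filter favoured a difference without forcing a call. Those named are given by their levels with no p. The median over all genes was 0.02, with quartiles at -0.07 and 0.12. Of the higher genes, 37 exceeded the midpoint by at least 1 on the log2 scale, while no lower gene fell by as much. The median of the higher calls was 0.60 and that of the lower calls -0.45. In 170 of the 186 higher genes all 3 HET libraries lay above all 6 homozygous libraries, and in 48 of the 60 lower genes all 3 lay below. The highest HET library was replicate 3 in 98 of the 186, replicate 2 in 47 and replicate 1 in 41. After quantile normalization, 152 genes were called higher and 94 lower, which moves the higher share from 75.6% to 61.8%. Without HET replicate 1 the calls numbered 117, 102 of them higher. Without HET replicate 2 there were 79 calls and without HET replicate 3 there were 70. Without WT replicate 2, KO replicate 1 or KO replicate 3 there were 156, 159 and 140.

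**Figure D1:**
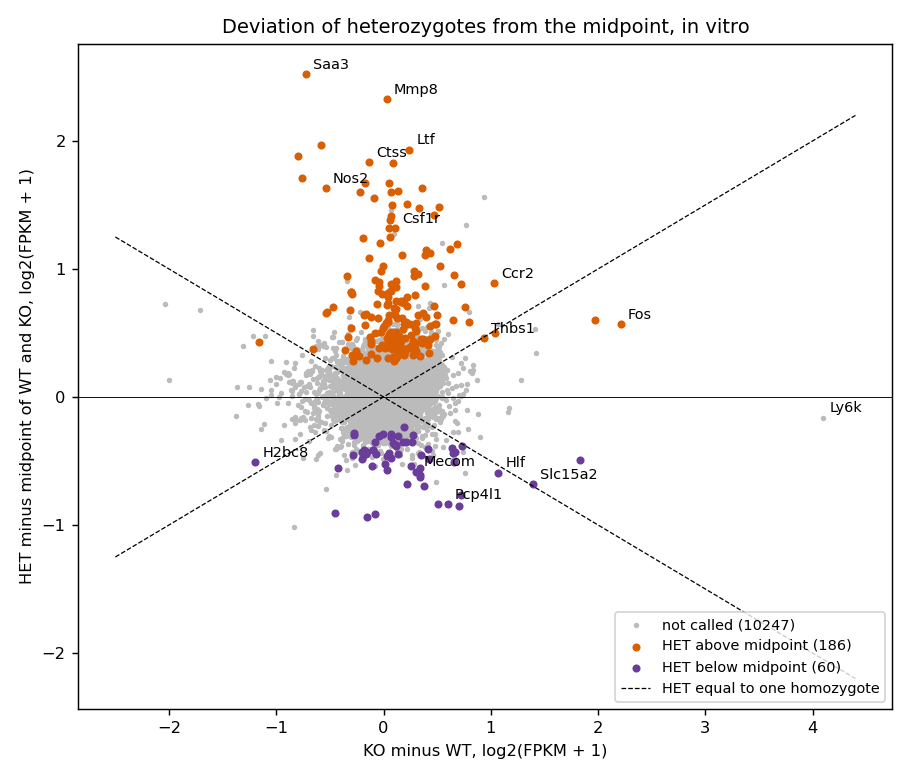
Each point is a tested autosomal gene, with KO minus WT on the horizontal axis and HET minus the midpoint on the vertical axis, both on the log2(FPKM + 1) scale; orange marks the 186 genes called above and purple the 60 called below the midpoint. Along the dashed lines HET equals a homozygous genotype, and most orange points, Saa3 and Mmp8 at the top, lie above both lines near a KO minus WT of 0.

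A stricter count asked for HET to differ from each homozygous genotype alone. Against WT, 378 genes (3.6%) passed, 306 higher (2.92%) and 72 lower (0.686%) in HET. Against KO, 204 genes (1.94%) passed, 142 higher (1.35%) and 62 lower (0.591%) in HET. HET was above both WT and KO in 80 genes (0.762%) and below both in 6 (0.0572%), each difference with an adjusted p under 0.05. The 6 genes below both were Pcp4l1, Ppp1r15a, S100a4, the histone gene H4c17 and 2 predicted genes. By position alone, all 3 HET libraries lay above the other 6 in 513 genes (4.89%) and below them in 461 (4.39%), so the directions were close to even before the size and the spread of the differences entered.

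Some genes of the secondary and tertiary neutrophil granules, the late granules, rose above the midpoint in HET. Of 20 tested members, 9 were called higher and none lower, with a list median of 0.79 beside 0.02 over all genes and 1.77% of all genes called higher. That share, and 0.572% called lower, stands beside each midpoint count of a list that follows. Mmp8, neutrophil collagenase, was at 7.98, 9.09 and 9.27 FPKM in the WT libraries, 45.5, 52.3 and 48.1 in HET and 12.3, 5.96 and 9.71 in KO. Each HET library held several times the level of any WT or KO library, with no overlap. Mmp8 (chromosome 9, 7558429 to 7568486) exceeded the midpoint by 2.33 ± 0.16 (SE) with an adjusted p of 2.42e-05, and it exceeded WT by 2.34 and KO by 2.31.

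Ltf, which encodes lactoferrin, the iron-binding protein of secondary granules, was at 1.07, 4.02 and 4.66 FPKM in WT, 12.1, 16.9 and 16.8 in HET and 4.36, 2.17 and 4.70 in KO. The lowest HET library was above the highest homozygous library by more than the spread among either homozygous group. Its difference from the midpoint was 1.93 ± 0.32 with an adjusted p of 0.0144. Chil3, a chitinase-like secreted lectin, was at 8.45, 17.0 and 21.0 FPKM in WT, 38.5, 59.2 and 67.7 in HET and 17.2, 22.8 and 17.4 in KO, a difference of 1.64 ± 0.26 with an adjusted p of 0.0129. The call of Ltf was lost without HET replicate 2 or 3, and that of Chil3 without either of these, KO replicate 1 or KO replicate 3.

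Lyz2, the lysozyme gene of neutrophils and macrophages and the most abundant riser named here, was at 242, 278 and 320 FPKM in WT, 591, 720 and 739 in HET and 366, 505 and 349 in KO. The HET libraries lay above both groups without overlap, and the difference was 1.02 ± 0.13 with an adjusted p of 0.000972. Wfdc21, a whey acidic protein family member, exceeded the midpoint by 1.51, and Cd177, a neutrophil surface antigen, by 1.25. Lcn2, the siderophore-binding lipocalin, exceeded it by 0.62, with means of 81.9 in WT, 133 in HET and 91.4 FPKM in KO. The Cd177 call was lost without HET replicate 3, and the Lcn2 call without WT replicate 2, HET replicate 2, HET replicate 3 or KO replicate 3.

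Camp, S100a8 and S100a9 were named after their values were seen, because they are classical late granule and cytosolic proteins of neutrophils that did not pass. Camp, the cathelicidin gene, was at 5.93, 25.4 and 27.5 FPKM in WT, 45.9, 76.8 and 96.6 in HET and 29.2, 38.4 and 29.5 in KO. S100a9, a calprotectin subunit, was at 191, 564 and 696 FPKM in WT, 912, 1582 and 1883 in HET and 609, 952 and 638 in KO. For Camp the groups did not overlap, whereas for S100a9 the lowest HET library was below the highest KO library. WT replicate 1 was far below the other WT libraries for both genes. Their differences from the midpoint were 1.57 ± 0.42 for Camp (adjusted p 0.10) and 1.34 ± 0.39 for S100a9 (adjusted p 0.122), and that of S100a8, the other subunit, was 1.20 (adjusted p 0.113). Without WT replicate 1 all 3 passed, at differences of 1.23, 1.06 and 0.97 for Camp, S100a9 and S100a8 and adjusted p values of 0.00592, 0.0372 and 0.0459.

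No primary granule gene passed the test. The 11 tested members had a median of 0.09. Mpo, myeloperoxidase, was at 1729, 1658 and 1646 FPKM in WT, 1705, 1623 and 1677 in HET and 1224, 2074 and 1186 in KO. Elane, neutrophil elastase, was at 1460, 1512 and 1638 in WT, 1365, 1366 and 1574 in HET and 895, 2062 and 870 in KO. HET and WT were close for both, and KO replicate 2 stood far above the other KO libraries. The differences from the midpoint were 0.10 ± 0.14 for Mpo and 0.10 ± 0.24 for Elane, with adjusted p values of 0.765 and 0.874. Without KO replicate 2 both passed, at 0.23 (adjusted p 0.0361) and 0.30 (adjusted p 0.0430). Ly6g, a surface marker of mature neutrophils, was under 2 FPKM in every library and differed from the midpoint by 0.02 (adjusted p 0.972).

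**Figure D2:**
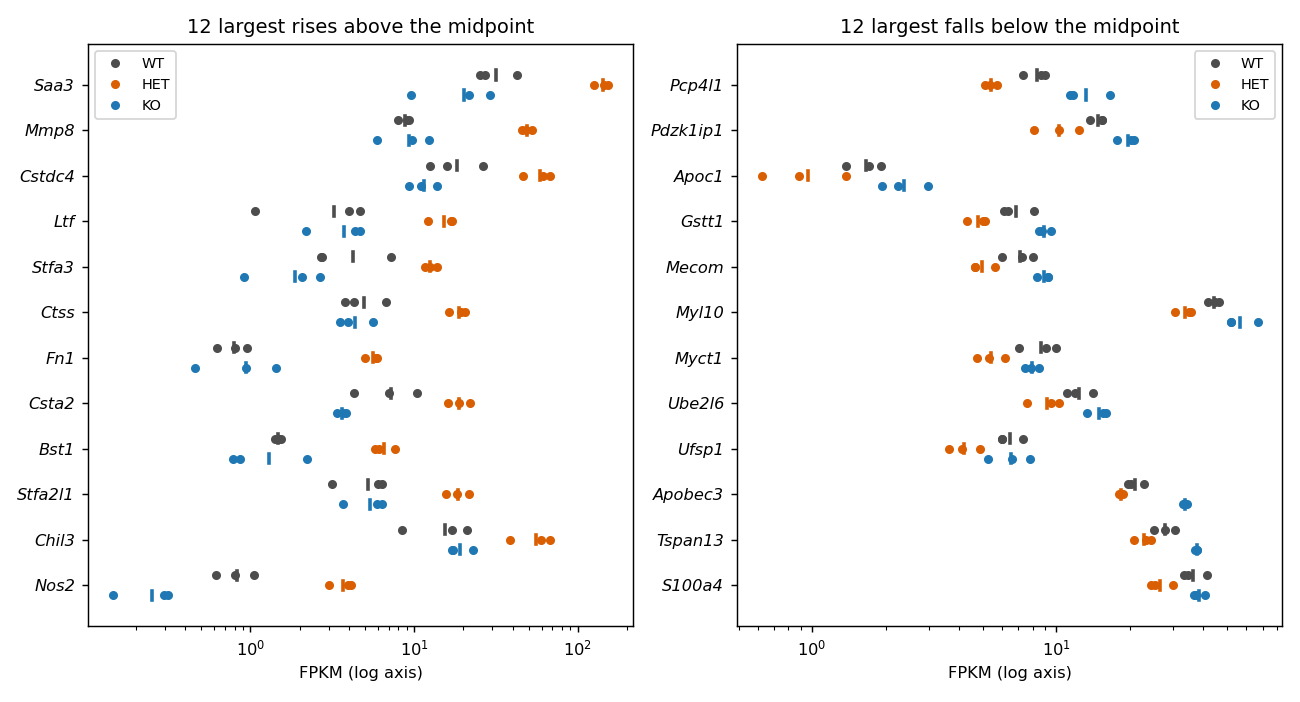
Points are FPKM per library on log axes for the 12 named genes with the largest rises (left) and the 12 with the largest falls (right) against the midpoint, coloured by genotype, and short bars are genotype means. In every gene shown the 3 HET libraries lie outside the range of the 6 others, by a wide gap for Mmp8 (45.5 to 52.3 against at most 12.3 FPKM) and a narrow one for Apobec3.

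Some stefin genes rose above the midpoint. Of 17 tested genes of the S100, stefin and cystatin list, 5 were called higher and S100a4 was called lower. Each of the 5 was a stefin or stefin-like gene of the chromosome 16 cluster. The list was split, with 10 genes positive and 7 negative, a median of 0.95 and quartiles at -0.14 and 1.46. Cstdc4 was at 12.5, 15.8 and 26.4 FPKM in WT, 46.6, 61.5 and 67.6 in HET and 13.9, 11.1 and 9.30 in KO, a difference of 1.97 ± 0.21 (adjusted p 0.000478). Stfa3 was at 2.70, 2.74 and 7.24 in WT, 11.6, 13.8 and 12.4 in HET and 2.68, 0.908 and 2.07 in KO, a difference of 1.88 ± 0.26 (adjusted p 0.0036). All HET libraries were above all homozygous libraries for both genes, and WT replicate 3 was the highest of the homozygous libraries.

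Csta2 exceeded the midpoint by 1.71, Stfa2l1 by 1.67 and Stfa1 by 0.95. Stfa1 lost its call without HET replicate 2, HET replicate 3 or KO replicate 1. These 5 genes lie within chromosome 16, 36156811 to 36455392, where 5 of 7 tested genes were called higher. Stefins form a multigene family, and how reads were divided between its members is uncertain. S100a4, a calcium-binding protein of motile cells, was at 34.6, 33.3 and 41.3 FPKM in WT, 25.3, 30.1 and 24.5 in HET and 36.6, 40.6 and 37.3 in KO. All HET libraries were the lower ones, and the fall was -0.47 ± 0.09 with an adjusted p of 0.0156, lost without HET replicate 1 or 3.

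Some genes of monocytes and macrophages rose as well. Of 15 tested markers, 8 were called higher and none lower, with a median of 0.59. Ctss, a lysosomal cysteine protease of antigen-presenting cells that the stefins can inhibit, was at 4.3, 3.79 and 6.71 FPKM in WT, 16.4, 20.5 and 19.4 in HET and 5.57, 3.50 and 3.95 in KO. The difference was 1.83 ± 0.16 with an adjusted p of 8.54e-05, and HET lay above WT and KO alike. Csf1r, the receptor that maintains macrophages, was at 3.18, 2.13 and 1.99 FPKM in WT, 7.13, 8.27 and 8.0 in HET and 3.35, 2.38 and 2.30 in KO. No HET value overlapped the others, and the difference was 1.32 ± 0.13 with an adjusted p of 0.000185.

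Ms4a6d, a membrane protein of macrophages, exceeded the midpoint by 1.50 with means of 1.43 in WT, 6.06 in HET and 1.61 FPKM in KO. Trem2, a lipid-sensing receptor and the 1 of the 8 that entered the test only through HET, had means of 0.763 in WT, 3.80 in HET and 0.852 FPKM in KO. Mpeg1, the pore-forming perforin-2 of phagocytes, exceeded the midpoint by 1.15. Ccr2, the chemokine receptor of inflammatory monocytes, followed another order, since KO was also above WT. It was at 13.6, 11.9 and 11.3 FPKM in WT, 31.7, 33.9 and 36.6 in HET and 27.9, 23.1 and 27.2 in KO. HET exceeded WT by 1.40 (adjusted p 2.2e-05) and KO by 0.38 (adjusted p 0.08), and the midpoint by 0.89 ± 0.08.

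Some general macrophage markers did not pass. Cd68, a lysosomal glycoprotein, was at 26.4, 34.1 and 41.9 FPKM in WT, 36.1, 40.6 and 36.4 in HET and 41.6, 45.4 and 44.0 in KO. Its HET range lay within the WT range, and the difference from the midpoint was -0.02 (adjusted p 0.942). Cd14, the lipopolysaccharide co-receptor, differed by 0.51 (adjusted p 0.148). Both were named after their values were seen.

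**Figure D3:**
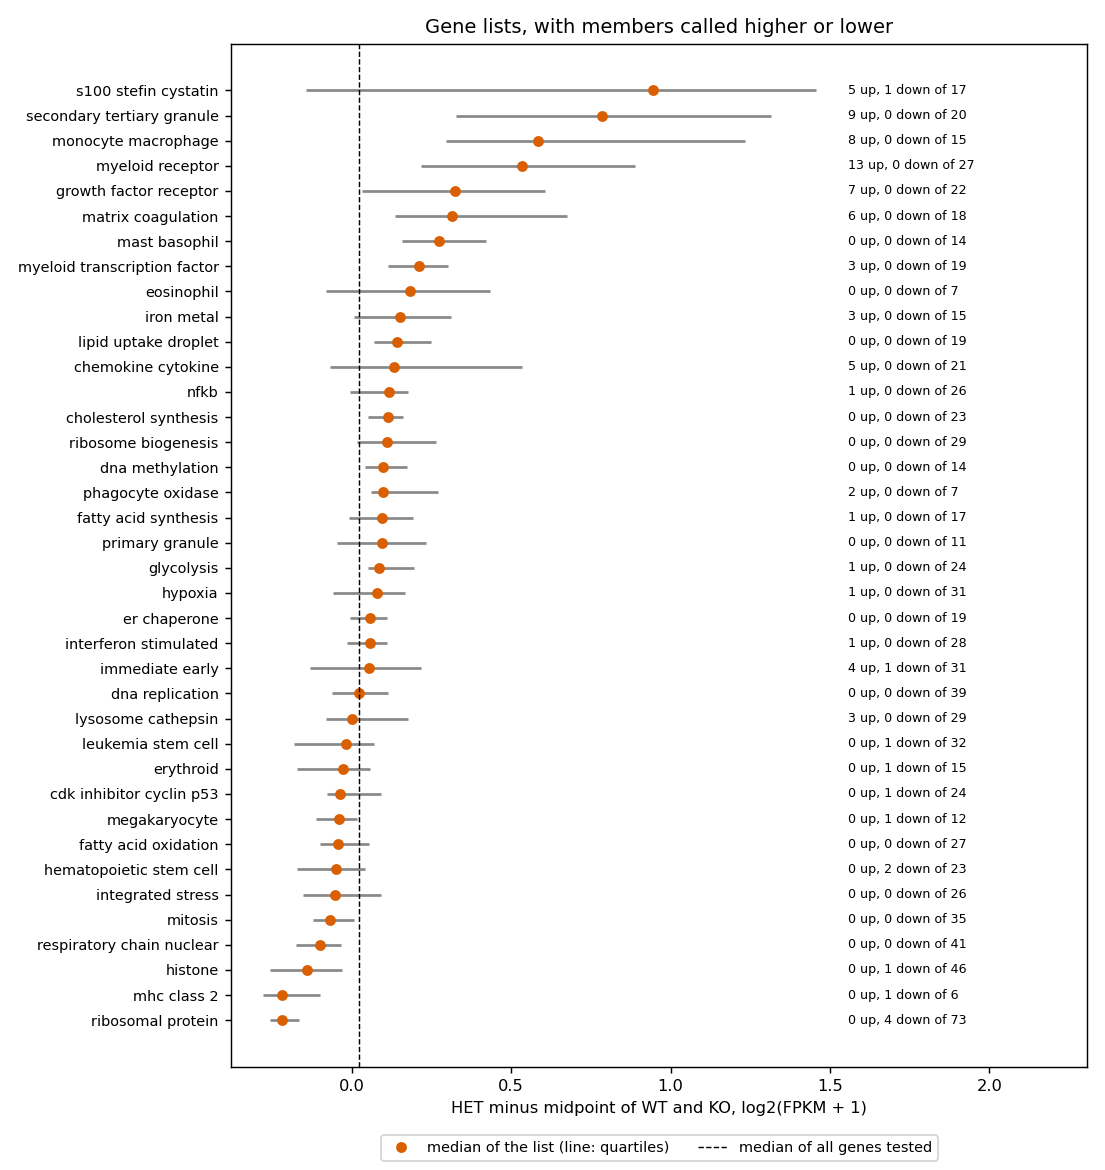
Points are the median HET minus midpoint over the tested genes of each list with at least 5 of them, horizontal lines run between quartiles, and the dashed line is the median over all tested genes; the text at the right counts members called. The combined S100, stefin and cystatin list and the late granule, macrophage and myeloid receptor lists have the highest medians, 0.95 to 0.53. The ribosomal protein list is among the lowest at -0.22.

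Of 27 tested receptors of myeloid cells, 13 were called higher and none lower, and 6 of the 13 entered the test only through HET. The median was 0.53. Pirb, an inhibitory receptor for MHC class I, was at 4.68, 6.10 and 7.28 FPKM in WT, 21.4, 22.9 and 22.2 in HET and 11.4, 6.49 and 9.55 in KO. The HET libraries agreed closely and lay far above the rest, and the difference was 1.48 ± 0.15 with an adjusted p of 0.000226. Sirpb1c, an activating signal-regulatory receptor, exceeded the midpoint by 1.60, and Clec5a, a C-type lectin that signals through Dap12, by 0.90. Sirpb1a, Sirpb1b and Sirpb1c, which are close copies with uncertain read division, lie with 2 further called genes on chromosome 3 between 15295063 and 16006371, where all 5 tested genes were called higher, only Sirpb1c among them with at least 1 FPKM in 3 homozygous libraries. Trem1, an amplifier of neutrophil inflammation, exceeded the midpoint by 0.83, and it lies with Trem2 in a stretch of chromosome 17 (48232713 to 48352276) where 3 of 5 tested genes were called. Tyrobp, the Dap12 adaptor that these receptors share, differed by -0.14.

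Other runs of called neighbours, at most 500 kb apart and at least 3 genes long, were Ms4a4a, Ms4a6c and Ms4a6d on chromosome 19 (11375488 to 11604804, 3 of 4 tested) and Fbxl5, Bst1 and Cd38 on chromosome 5 (43744618 to 43912374, 3 of 3). Ms4a4a and Cd38 entered the test only through HET. Bst1 and Cd38 encode related enzymes that consume NAD. The call of Fbxl5, which exceeded the midpoint by 0.38, was lost without WT replicate 2, HET replicate 2, HET replicate 3 or KO replicate 3. Bst1 was at 1.54, 1.41 and 1.49 FPKM in WT, 5.77, 7.68 and 6.07 in HET and 2.22, 0.787 and 0.868 in KO. Its HET libraries were well above the rest, with a difference of 1.67 ± 0.17 and an adjusted p of 0.000226. A further run on chromosome 5 (137821952 to 139325763) held 5 called genes among 27 tested, Pilra and Pilrb2 among them, which entered the test only through HET. Below the midpoint there was a single run, on chromosome 4 (109652427 to 109963960), which held Cdkn2c, Faf1 and a gene with a clone name.

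Matrix and coagulation genes that myeloid cells transcribe gave 6 higher calls among 18, with a median of 0.31. Fn1, fibronectin, was at 0.809, 0.958 and 0.625 FPKM in WT, 4.99, 5.81 and 5.94 in HET and 1.43, 0.460 and 0.940 in KO. HET was several times above both. Vcan, the proteoglycan versican, was at 2.43, 2.55 and 2.44 in HET and at most 0.583 in the others. Fn1 and Vcan are the 2 of these 6 that entered the test only through HET. F7, coagulation factor VII, exceeded the midpoint by 1.61 and Tgfbi, a secreted adhesion protein, by 1.32. Both had all HET libraries above the 6 others.

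Among 21 chemokines, cytokines and their receptors, 5 were called higher, 1 of which entered the test only through HET, and none lower, with a median of 0.13. Saa3, an acute phase serum amyloid A protein made by macrophages, showed the largest difference among the named genes. It was at 25.4, 27.1 and 42.6 FPKM in WT, 126, 145 and 154 in HET and 29.1, 9.57 and 21.6 in KO. The lowest HET library was far above the highest homozygous library, and the difference was 2.52 ± 0.29 with a 95% interval of 1.86 to 3.18 and an adjusted p of 0.00188. Ccl2, the monocyte chemoattractant, exceeded the midpoint by 1.16, Ccr1 by 0.73 and Cxcr2, the neutrophil chemokine receptor, by 0.68. The Cxcr2 call was lost without HET replicate 2 or 3.

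Nos2, the inducible nitric oxide synthase, was at 1.05, 0.617 and 0.805 FPKM in WT, 3.00, 4.11 and 3.97 in HET and 0.312, 0.297 and 0.144 in KO. The KO libraries were the lowest and the HET libraries the highest. Nos2 entered the test only through HET. Of 7 genes of the phagocyte oxidase list, Nos2 and Ncf4, a cytosolic oxidase subunit, were called higher. Ncf4 exceeded the midpoint by 0.44, with a call that was lost without HET replicate 2 or 3. Among 29 lysosomal genes the median was 0.00, and Ctss, Psap (0.59) and Ctsc (0.33) were called higher, beside 1.77% of all genes. Psap, the precursor of the saposins, was at 173, 165 and 154 FPKM in WT, 248, 280 and 270 in HET and 197, 186 and 186 in KO, with every HET library above every other. The Ctsc call was lost in 11 of 18 alternative fits, among them those without HET replicate 1, 2 or 3.

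The 19 tested transcription factors of the myeloid lineage had a median of 0.21, and Cebpd and Klf4 were among those called higher. Cebpd, a C/EBP family factor, exceeded the midpoint by 0.60 and Klf4 by 0.50, with adjusted p values of 0.0451 and 0.0446. The Cebpd call was lost without WT replicate 2, any HET library, KO replicate 1 or KO replicate 3, and the Klf4 call was lost without any library other than KO replicate 2. In all, the Cebpd call was lost in 12 of 18 alternative fits and the Klf4 call in 13 of 17. Quantile normalization, median-ratio scaling and the replicate block were among these for both. Spi1, which encodes PU.1, differed by 0.08 (adjusted p 0.773) and Cebpb by 0.49 (adjusted p 0.10), which passed without WT replicate 3 at 0.58 (adjusted p 0.0255).

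Of 22 receptors for growth factors and cytokines, 7 were called higher, 1 of which entered the test only through HET, and none lower, with a median of 0.32. Il1r2, the decoy receptor for interleukin 1, exceeded the midpoint by 0.68, Csf2rb, the shared beta chain of the GM-CSF receptor, by 0.62 and Tnfrsf1b by 0.49. Csf2rb was at 98.9, 114 and 105 FPKM in WT, 177, 147 and 148 in HET and 111, 76.2 and 109 in KO. HET replicate 1 was the highest of its group. The Il1r2 call was lost without HET replicate 3, and those of Csf2rb and Tnfrsf1b without any one HET library. Kit, the stem cell factor receptor, differed by -0.17 (adjusted p 0.442).

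In 5 lists of other blood lineages, 2 of 52 tested genes were called (3.85%, beside 2.34% of all genes), so that lists this short say little. The 14 mast cell and basophil genes had a median of 0.27 with 12 positive and no call, the 7 eosinophil genes a median of 0.18 and the 4 dendritic cell genes a median of -0.11. Of 15 erythroid genes, the alpha globin gene Hba-a1 differed from the midpoint by -0.45. Of 12 megakaryocyte genes Selp, which encodes P-selectin, differed by -0.40. Selp had means of 13.3 in WT, 12.5 in HET and 21.2 FPKM in KO. Its HET level was thus near WT (-0.08, adjusted p 0.568) and KO stood apart. Hba-a1 shares its reads with a near copy, Hba-a2, which differed by 0.07. The Hba-a1 call was lost without WT replicate 2, HET replicate 1, HET replicate 3 or KO replicate 1, and the Selp call without HET replicate 1 or 2.

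Summed levels of marker lists, which include genes below the test's minimum, were compared by library. The 25 macrophage markers in the table summed to 487 to 676 FPKM in WT, 703 to 784 in HET and 530 to 749 in KO. The 24 late granule genes summed to 1093 to 1799 in WT, 2139 to 2867 in HET and 1657 to 2287 in KO. For both lists HET lay above WT and overlapped the highest KO library, replicate 2. The 11 primary granule genes summed to 6194 to 6843 in WT, 6087 to 6417 in HET and 4802 to 8138 in KO, with overlapping ranges. The part of cell composition in the gene results was not tested.

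Sex-linked transcripts moved with the same contrast. The 4 Y-linked genes Ddx3y, Eif2s3y, Kdm5d and Uty summed to 8.68 to 11.1 FPKM in WT, 25.7 to 30.3 in HET and 16.1 to 18.1 in KO. Xist, transcribed from the inactive X chromosome, was at 44.8, 49.6 and 31.4 FPKM in WT, 12.3, 15.8 and 18.2 in HET and 43.2, 25.2 and 40.0 in KO. Every library held both kinds of transcript. The HET libraries were the highest for the Y-linked sum and the lowest for Xist, with no overlap. The part of donor sex in the autosomal differences above was not tested.

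**Figure D4:**
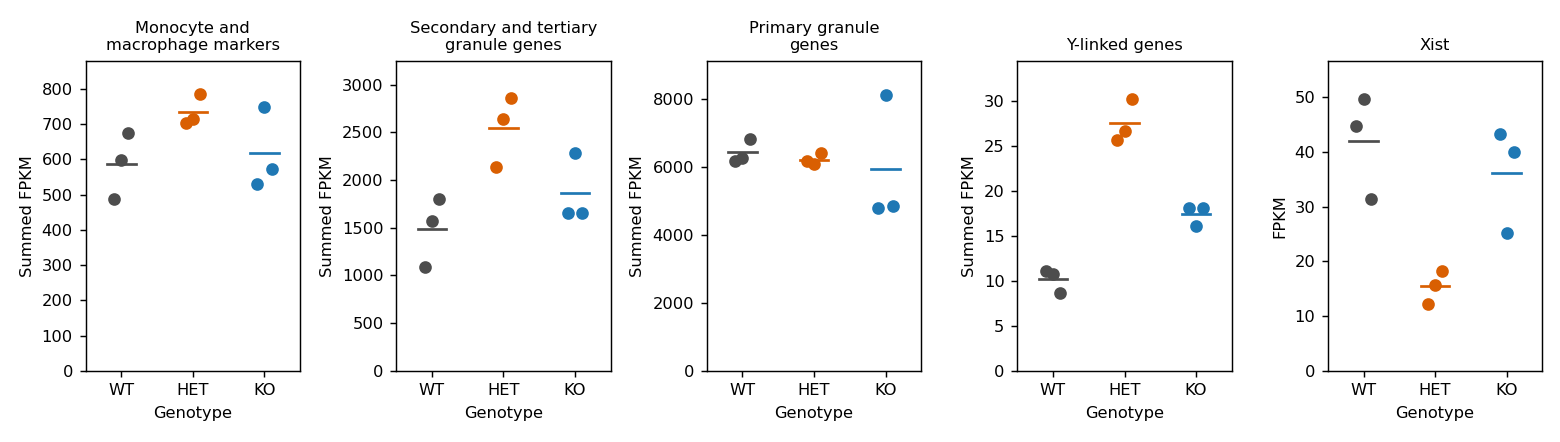
Points are the summed FPKM of each marker list per library, or the FPKM of Xist, with bars for genotype means and all axes starting at 0. The HET libraries are highest for the Y-linked sum and lowest for Xist, HET has the highest mean late granule sum with overlap to KO replicate 2, and primary granule sums overlap between genotypes.

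The 60 lower calls were smaller in size and spread over many kinds of gene. Pcp4l1, a calmodulin-binding peptide gene, was at 8.62, 8.96 and 7.31 FPKM in WT, 5.69, 5.36 and 5.09 in HET and 11.4, 16.5 and 11.7 in KO. HET was the lowest genotype and KO the highest, with a difference from the midpoint of -0.84 ± 0.11 and an adjusted p of 0.00195. Pdzk1ip1, a membrane protein gene, was at 13.8, 15.3 and 15.3 FPKM in WT, 10.3, 12.4 and 8.12 in HET and 20.9, 17.8 and 20.1 in KO, a fall of -0.70 ± 0.11. Gstt1, a glutathione transferase, fell by 0.61, and Apobec3, a cytidine deaminase that restricts retroviruses, by 0.51. Both held their call in every alternative fit.

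Of 23 genes of hematopoietic stem cells, 2 were called lower and none higher, with a median of -0.05, beside 0.572% of all genes called lower. Hlf, 1 of the 2, entered the test only through KO. Mecom, a transcription factor required by stem cells, was at 7.99, 7.23 and 5.99 FPKM in WT, 4.65, 4.64 and 5.61 in HET and 9.22, 8.32 and 9.23 in KO. The HET libraries were below all others, and the difference was -0.58 ± 0.10 with an adjusted p of 0.00858, lost without HET replicate 1 or 2. Hlf, another stem cell factor, was at 0.561, 0.945 and 0.688 FPKM in WT, 0.551, 0.873 and 0.571 in HET and 2.63, 2.84 and 2.42 in KO. HET and WT overlapped and KO stood apart, so that HET was -0.59 from the midpoint. Every WT and HET library was under 1 FPKM. Hlf thus entered the test only through KO, which had to stand apart, and no p is given. Its call was lost without HET replicate 1 or 3. Of 32 leukemia stem cell genes Hlf alone was called, and Meis1 differed by -0.27 (adjusted p 0.247). Cd34, the progenitor surface marker, was at 108, 90.3 and 90.8 FPKM in WT, 72.3, 82.6 and 83.7 in HET and 91.4, 116 and 94.1 in KO. All HET values were the lower ones, but the difference of -0.30 had an adjusted p of 0.122.

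Of 73 tested cytosolic ribosomal protein genes, 4 were called lower (Rps27, Rps28, Rps29 and Rpl3) and none higher, and the median was -0.22. Over all genes, 0.572% were called lower. In 57 of the 73 all 3 HET libraries lay below the 6 others, beside 4.39% of all genes. Rps28 was at 1719, 1725 and 1851 FPKM in WT, 1362, 1506 and 1453 in HET and 1755, 1831 and 1685 in KO, a difference of -0.29 ± 0.06 with an adjusted p of 0.0226. The list median was -0.08 after quantile normalization, -0.24 after median-ratio scaling and -0.16 after rescaling to TPM. All 4 calls were lost after quantile normalization, after median-ratio scaling and without WT replicate 2, any HET library or KO replicate 1, and that of Rpl3 also without KO replicate 3. The 41 nuclear genes of the respiratory chain had a median of -0.10 with no call, and the 29 ribosome biogenesis genes a median of 0.11 with no call.

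The order of gene dose was examined among the 308 genes (2.94%) that passed the test for KO minus WT, 140 (1.33%) higher and 168 (1.6%) lower in KO. Placement is the share of the WT to KO distance that HET had covered, so that 0 is the WT level and 1 the KO level. The same WT and KO libraries chose these genes and set the scale. HET was between 0.25 and 0.75 in 156 of them (50.6%), between 0 and 0.25 in 42, between 0.75 and 1 in 52, below 0 in 26 and above 1 in 32. The median was 0.54, and it was 0.66 among genes higher in KO and 0.46 among genes lower in KO. With the homozygous levels taken as free of error, the 95% interval of HET minus midpoint lay wholly between the homozygous levels in 88 genes and excluded the midpoint in 96. The KO minus WT calls themselves ranged from 62 to 463 when libraries were left out in turn.

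**Figure D5:**
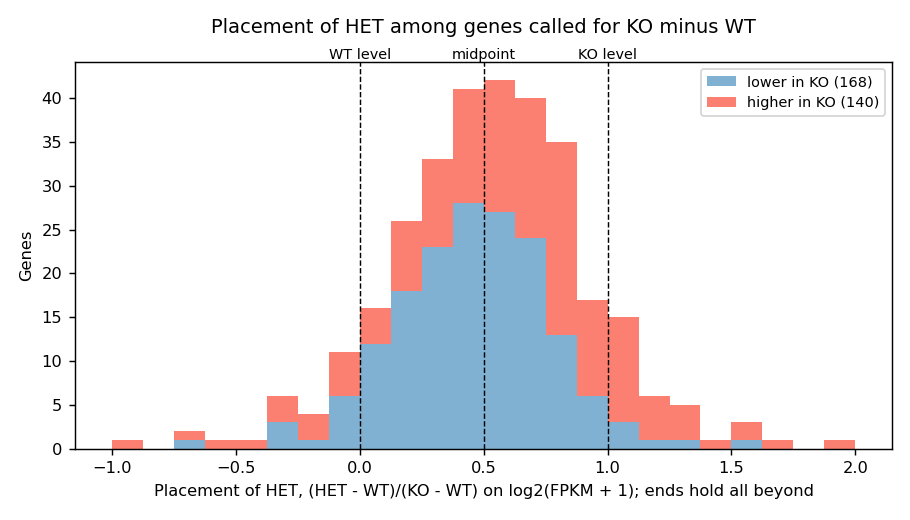
The histogram counts the 308 genes called for KO minus WT by the placement of HET, with 0 at the WT level, 0.5 at the midpoint and 1 at the KO level, stacked by direction in KO; the end bars hold all genes beyond. The bulk lies near the midpoint, 156 genes between 0.25 and 0.75, and genes higher in KO reach farther right.

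Ly6k, a GPI-anchored protein gene with the largest KO minus WT difference, lay between the homozygous genotypes in HET. It was at 0.280, 0.255 and 0.328 FPKM in WT, 3.46, 4.61 and 3.29 in HET and 20.7, 21.7 and 20.6 in KO. The 3 genotypes were fully separated, and the placement of HET was 0.46. HET differed from the log midpoint by -0.16 (adjusted p 0.42). The sign depended on the scale: with a pseudocount of 0.1 the difference was 0.43 (adjusted p 0.115) and after rescaling to TPM 0.10, whereas on the linear scale HET lay far below the midpoint of the FPKM values and passed the test (adjusted p 3.82e-05). Als2cl, an exchange factor gene, had a placement of 0.53 with means of 2.18 in WT, 3.19 in HET and 4.33 FPKM in KO. Plekha2, a phosphoinositide-binding adaptor gene, had a placement of 0.50 with means of 32.3, 22.1 and 14.6 FPKM. Its HET libraries ranged from 15.8 to 26.6.

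HET was at the WT level, within 0.15 of a placement of 0, in 6 genes that were called both for KO minus WT and for HET minus midpoint. Slc15a2, a peptide transporter, was at 0.369, 0.589 and 0.380 FPKM in WT, 0.533, 0.433 and 0.406 in HET and 2.65, 2.64 and 3.06 in KO. WT and HET overlapped fully, and the placement was 0.01 with a difference from the midpoint of -0.68. Only its KO libraries reached 1 FPKM. Slc15a2 thus entered the test only through KO, which had to stand apart, and no p is given. HET was at the KO level in 3 genes. Thbs1, thrombospondin 1, was at 118, 129 and 97.6 FPKM in WT, 222, 199 and 236 in HET and 217, 230 and 212 in KO, with a placement of 0.99. H2bc8, a histone H2B gene, was at 8.64, 9.29 and 9.23 in WT, 3.34, 3.47 and 4.22 in HET and 3.08, 3.69 and 3.42 in KO, with a placement of 0.93. In both, HET and KO overlapped and WT stood apart. The third was Klf4, given above. The midpoint call of Thbs1 was lost without HET replicate 1, HET replicate 3 or KO replicate 3, and that of H2bc8 without HET replicate 1 or 2.

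On the same terms, the interval of HET lay wholly past the KO level in 6 genes and wholly past the WT level in 6. Tested against that homozygous genotype itself, Dpep2 alone of the first 6 and Pcp4l1 alone of the second 6 had an adjusted p under 0.05. Dpep2, a dipeptidase of leukotriene metabolism, was at 1.94, 2.28 and 2.75 FPKM in WT, 7.86, 9.31 and 8.76 in HET and 4.76, 4.49 and 3.80 in KO. The order was WT, KO and then HET with no overlap, and the placement was 2.24. Apobec3 was at 23, 19.7 and 20.3 FPKM in WT, 18.3, 18.8 and 18.1 in HET and 34.2, 33.3 and 33.1 in KO. HET was at or just below WT (-0.18, adjusted p 0.182) while KO was well above, with a placement of -0.27.

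Immediate early genes, which cells switch on within minutes of a stimulus, gave 10 calls for KO minus WT among 31, all higher in KO. For HET minus midpoint they gave 4 higher calls and 1 lower call. Over all genes, 1.33% were called higher in KO, and 1.77% higher and 0.572% lower than the midpoint. Fos, a subunit of AP-1, was at 75.3, 96.1 and 79.2 FPKM in WT, 250, 245 and 313 in HET and 347, 420 and 403 in KO. The genotypes were separated in the order of dose, yet HET was nearer to KO, with a placement of 0.76 and a difference from the log midpoint of 0.57 ± 0.10 (adjusted p 0.013). On the linear scale the adjusted p was 0.396, and the call was also lost without HET replicate 3. Fosb had a placement of 0.81, with a call lost without WT replicate 1, any HET library or any KO library. That call was lost in 14 of 18 alternative fits in all, quantile normalization, median-ratio scaling and the linear midpoint among them. Ppp1r15a, the stress-induced phosphatase subunit Gadd34, was at 90.2, 90.3 and 90.9 FPKM in WT, 64.4, 63.4 and 61.9 in HET and 78.5, 79.7 and 84.7 in KO. Its HET libraries were the lowest, and the difference was -0.43 ± 0.05 with an adjusted p of 0.00109.

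Many hypoxia-responsive and glycolytic genes fell in KO. Of 31 hypoxia genes, 18 were called lower in KO than in WT. Over all genes, 1.6% were called lower and 1.33% higher in KO. The HET mean lay between WT and KO in 17 of the 18, with a median placement of 0.45. Of the 31, 1 was called against the midpoint. The list medians were -0.65 for KO minus WT, -0.28 for HET minus WT and 0.08 for HET minus midpoint. Of 24 glycolytic genes, 11 were lower and 1 higher in KO, and the HET mean lay between WT and KO in 9 of the 12, with a median placement of 0.15. The list medians were -0.26 for KO minus WT, -0.04 for HET minus WT and 0.30 for HET minus KO, so that HET was the nearer to WT. Against the midpoint 1 was called, with a median of 0.09. Ldha, lactate dehydrogenase A, was at 524, 534 and 545 FPKM in WT, 494, 491 and 476 in HET and 385, 422 and 373 in KO. The genotypes did not overlap, and the placement was 0.30 with a difference from the midpoint of 0.09 (adjusted p 0.466). Pfkfb4, a regulator of phosphofructokinase that belongs to both lists, was the called gene at 0.37 (adjusted p 0.0477), lost without any library other than KO replicate 2. Its call was lost in 13 of 17 alternative fits in all, quantile normalization and median-ratio scaling among them.

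In the 4 lists of lipid genes, 1 of 85 tested genes was called (1.18%, beside 2.34% of all genes). Of 17 fatty acid synthesis genes, Srebf1, the sterol regulatory factor, was called at 0.28 (adjusted p 0.0357). The Srebf1 call was lost without WT replicate 2, any HET library, KO replicate 1 or KO replicate 3. Median-ratio scaling and the replicate block also removed it. The 23 cholesterol synthesis, 27 fatty acid oxidation and 19 lipid uptake and droplet genes had medians of 0.11, -0.04 and 0.14, and 20, 12 and 16 of them were positive.

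The bone marrow table of the same genotypes was much sparser. The 2 HET libraries with a column there listed 3633 and 5209 genes above 0, beside 6560 to 8526 in the others, and the median HET minus midpoint over 6998 tested genes was -1.01. Of those, 35 (0.50%) were called, 1 higher (0.0143%) and 34 lower (0.486%), and the count ranged from 0 to 357 when libraries were left out in turn. Of the in vitro genes called higher, 132 were tested in marrow, and none was called there. Of the 132, 37 had a positive difference, beside 2156 of all 6998 genes tested there. The median of the 132 was -1.06, close to that of all genes. Ctss was at 718, 678 and 805 FPKM in the marrow WT libraries, 1059 and 681 in HET and 491, 1023 and 851 in KO, with overlapping ranges.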

How the data were processed

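The authors deposited one table of FPKM values per set of cells, with 22017 genes and 9 libraries for the in vitro set. Genome build mm10 is named per the submitters' processing notes. No source used here names the aligner, the counter or the strand setting. FPKM values hold no counts, so count models were not used.

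Genes were matched to RefSeq (GRCm38.p6) by Entrez gene identifier, which placed 21349 of 22017 genes, 20677 of them on autosomes. The 668 unmatched genes were left out. Genes of at least 1 FPKM in 3 libraries (10493) were tested on log2(FPKM + 1) with limma 3.58.1 (trend and robust options, statmod 1.5.0, R 4.3.3) in a shared fit of the 3 genotypes. The contrast was HET minus the mean of WT and KO, with Benjamini-Hochberg adjustment over all 10493 genes and a threshold of 0.05. A gene called has an adjusted p under it. The fit was tested on simulated data. Intervals are 95%. Depth was estimated from low values of single-exon genes, of which 79.6% to 89.9% lay within 0.1 of a whole read.

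Named genes were Fabp family members, the 12 largest called differences in each direction whose HET libraries lay outside all others (mean of at least 2 FPKM in a genotype), up to 4 called members per list, and genes of given placement. Predicted genes were counted but not named, unless in a run of neighbours or beside a count of 5 or fewer; other genes named were chosen after their values were seen. The members and the 46 lists were chosen with earlier results of these data known. The marrow HET library of replicate 2 was not used here. A named gene that could not be printed is not reported here. Alternatives covered the pseudocount, the filter, scaling, the linear midpoint, a replicate block and leaving out each library. Promoter windows came from RefSeq, and motifs and alignments were computed with Python 3.11.15 and biopython 1.88.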

Additional observations from a re-analysis of the deposited data

How the results depend on the processing

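None of the 105 called genes examined changed sign, but 10 of the 22 that were not called did, Ly6k among them. The 246 calls for HET minus midpoint became 137 with a filter at 5 FPKM and 163 with a replicate block, and 70 to 323 without each library in turn. The 186 higher calls became 97 at 5 FPKM (50 to 225 without a library). The 60 lower calls became 94 after quantile normalization and 33 with the block (15 to 98 without a library). Genes outside both homozygotes numbered 86, and 47 at 5 FPKM (28 to 114 without a library); the 80 above both became 44 (28 to 98), and the 6 below both became 2 with no filter, 3 at 5 FPKM, 19 after quantile normalization and 3 for the linear midpoint (0 to 16). KO minus WT gave 308 calls, 145 with no filter and 158 with the block (62 to 463). The 50.6% of genes placed between 0.25 and 0.75 became 58.9% with the block (41.9% to 59.7%). The marrow calls, 35, became 102 with a pseudocount of 0.1 and 0 with the block (0 to 357). The list medians ranged from 0.52 to 0.63 for macrophage and from 0.63 to 1.04 for late granule genes without each library. The causes were not tested.

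Calls made under all 18 alternatives numbered 36 higher and 8 lower. Losses of single calls are named above mostly for left-out libraries. Some of those calls were also lost with another filter, another scaling or the block. Same-numbered in vitro libraries did not deviate together (r between -0.302 and 0.185), so the numbers do not pair the samples and the block is given only here. Rescaling to TPM moved the median of all genes to 0.08 and gave 294 calls. Groups of 3 libraries limit the precision, and genes near 1 FPKM rest on few fragments.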

Other observations

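Genes outside every list made up 119 of the 186 higher and 47 of the 60 lower calls, and those named here were chosen after their values were seen. Nlrp3, the inflammasome sensor, had means of 3.27 in WT, 6.52 in HET and 3.95 FPKM in KO, a difference from the midpoint of 0.71 (adjusted p 0.00933). Mefv, which encodes pyrin, had means of 0.947, 2.49 and 1.22 FPKM, a difference of 0.75 (adjusted p 0.000997). P2rx7, an ATP-gated channel, differed by 0.58 (adjusted p 0.0311). All 3 HET libraries lay above all 6 others for each. The Nlrp3 call was lost without HET replicate 2 or 3, and the P2rx7 call without WT replicate 2 or any HET library. Wfdc17, a whey acidic protein gene of macrophages, had means of 9.71, 32.9 and 13.8 FPKM and differed by 1.42 (adjusted p 2.42e-05). Mcemp1, a mast cell and neutrophil membrane protein gene, had means of 5.42, 19 and 7.03 FPKM and differed by 1.47. Xdh, xanthine dehydrogenase, had means of 2.51, 6.65 and 3.27 FPKM and differed by 0.99.

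Eps8l1, an actin regulator, had means of 0.106 in WT, 2.16 in HET and 0.0435 FPKM in KO, and it entered the test only through HET. Below the midpoint, Tspan33, a tetraspanin, had means of 7.05, 3.75 and 4.99 FPKM and differed by -0.55 (adjusted p 0.0166), lost without HET replicate 1 or 3. Capn11, a calpain gene, had means of 0.0197, 0.370 and 2.64 FPKM, with HET at a placement of 0.23 and a difference of -0.49. It entered the test only through KO, which had to stand apart, and no p is given. The Capn11 call was lost without HET replicate 2 or 3 and with a pseudocount of 0.1, where the difference was -0.28.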
